A study of Mus musculus with 6 samples.

Results

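The genes described here are 10 mouse genes of the major histocompatibility complex (MHC) class II system, found in the gene tables by their NCBI Gene ID: H2-Aa, H2-Ab1, H2-Eb1, H2-Ea, H2-DMa, H2-DMb1, H2-DMb2, H2-Oa, Cd74 and Ciita. Each had 1 row in every table, all 10 passed the filter on low values (2 or more libraries with 1 TPM or more), and 16473 genes were tested in all. TPM is a transcript abundance scaled for gene length and for the total of the library, so levels can be set side by side between genes. H2-Ea, H2-Oa and Ciita passed the filter through libraries of the other groups, since both libraries labelled old PBS had less than 1 TPM of each. The libraries came from ovaries of wild type BDF1 mice, a hybrid laboratory strain. There were 3 groups of 2 libraries: mice aged 65 weeks injected into the abdomen with MIT-001 for 7 days at 0.5 mg/kg (old MIT-001), mice aged 65 weeks injected with PBS for 7 days (old PBS), and mice aged 8 weeks injected with PBS for 7 days (young PBS). MIT-001 is a small molecule that scavenges reactive oxygen species in mitochondria, and PBS, a buffered salt solution, is its vehicle. The labels give 40 old and 20 young mice for the study as a whole, without saying how those animals were divided over the libraries. The p-values therefore reflect only how far these 6 libraries scatter, which may be technical.

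Between 14317 and 16304 genes reached a TPM of 1 per library, and the coverage in the tables implied 6.34 to 7.14 gigabases of aligned reads, so depth was similar. Ovary markers were present in every library: the 10 genes of that list, which mark oocytes, granulosa, theca and luteal cells, summed to between 13866 and 27343 TPM. The oocyte gene Gdf9 went against the age labels: both old PBS libraries (116 and 108 TPM) were above both young PBS libraries (73.3 and 9.51 TPM). The granulosa cell gene Amh had the same order, with 123 and 213 TPM in old PBS, against 95.0 and 40.1 TPM in young PBS. Gdf9 stood at 22.8 and 9.35 TPM in old MIT-001, below both old PBS libraries. In both comparisons with old PBS the ovary list mostly ran opposite to the class II genes described here. Of its 10 genes, 9 were higher in old PBS than in young PBS (median log2 fold change 1.27), 7 without overlap. Of all 16473 genes, 11213 were higher, and 38.1% were higher without overlap. All 10 were lower in old MIT-001 than in old PBS (median -1.29), 9 without overlap, where 24.2% of all genes were. Against young PBS, old MIT-001 had 7 of the 10 lower, all with overlap, and 8 of the class II genes were lower too. Limma called none of the ovary list over all genes. At an unadjusted p below 0.05, 5 were higher in old PBS than in young PBS, where 14.6% of all genes were. In old MIT-001, 6 were lower than in old PBS, where 4.36% of all genes were. The part of the ovary list in the class II values was not tested. The 2 young PBS libraries stood apart from each other. Across the genes tested, Pearson's r on log2(TPM + 1) was 0.917 between them, against 0.940 between young PBS replicate 1 and either old MIT-001 replicate 1 or old PBS replicate 1. The ratio of TPM to FPKM was 1.89 in young PBS replicate 1 and 2.26 to 2.31 in the other 5 libraries. Groups are therefore named as labelled throughout, and every direction holds for the libraries as labelled.

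MHC class II molecules are pairs of an alpha and a beta chain that carry peptides from endosomes to the cell surface and show them to CD4 T cells. In the mouse the A molecule is built from H2-Aa and H2-Ab1 and the E molecule from H2-Ea and H2-Eb1. The invariant chain, encoded by Cd74, escorts new pairs and blocks their peptide groove; the DM molecule (H2-DMa with H2-DMb1 or H2-DMb2) then exchanges the remnant of that chain for a peptide, and the DO molecule, whose alpha chain is H2-Oa, restrains DM. Ciita encodes the coactivator that class II genes need for transcription. Dendritic cells, B cells and many macrophages express these genes constitutively, and ovarian tissue holds resident macrophages. BDF1 mice carry 1 set of chromosomes from C57BL/6 and 1 from DBA/2, and H2-Ea is disrupted in C57BL/6 mice but intact in DBA/2 mice. The RefSeq annotation of the C57BL/6J genome lists H2-Ea as a transcribed pseudogene and the other 9 genes as protein coding.

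On mm10, the coordinates of the files, 8 of the 10 genes lie together on chromosome 17. From one end to the other they are H2-Oa at chr17:34092379-34095234, H2-DMa at chr17:34119693-34139101, H2-DMb2 at chr17:34143229-34151553, H2-DMb1 at chr17:34153191-34160229, H2-Ab1 at chr17:34263227-34269418, H2-Aa at chr17:34282744-34287823, H2-Eb1 at chr17:34305867-34316674 and H2-Ea at chr17:34341959-34347547. H2-Aa and H2-Ea are on the minus strand and the other 6 on the plus strand. Ciita lies on chromosome 16 (chr16:10480014-10531064, plus strand). Cd74 lies on another chromosome.

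Class II promoters are known for a shared module, in which an X box bound by the RFX complex lies upstream of a Y box bound by NF-Y, and Ciita acts through the complex of both. The RefSeq promoter table (build GRCm38.p6) matched 6 of the 10 genes, and the 130 bases before the annotated start are shown for 5 of them, since these genes were all lower in old PBS than in young PBS and carry both kinds of letters. Capitals mark GATTGG, the core letters of a Y box, and, upstream of it, the X box letters GCAAC or AACNGATG, which overlap in H2-Eb1. The motifs were chosen with these sequences in view.
H2-Aa, chr17:34287824-34287953, minus strand: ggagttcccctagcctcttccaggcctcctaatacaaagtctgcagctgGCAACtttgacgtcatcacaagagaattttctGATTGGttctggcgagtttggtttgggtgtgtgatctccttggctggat
H2-Eb1, chr17:34305737-34305866, plus strand: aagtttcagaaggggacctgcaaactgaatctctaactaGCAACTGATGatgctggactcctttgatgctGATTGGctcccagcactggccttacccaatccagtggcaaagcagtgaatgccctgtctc
H2-DMb1, chr17:34153061-34153190, plus strand: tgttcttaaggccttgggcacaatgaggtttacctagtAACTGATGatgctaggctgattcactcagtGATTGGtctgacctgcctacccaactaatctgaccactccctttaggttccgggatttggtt
H2-DMb2, chr17:34145119-34145248, plus strand: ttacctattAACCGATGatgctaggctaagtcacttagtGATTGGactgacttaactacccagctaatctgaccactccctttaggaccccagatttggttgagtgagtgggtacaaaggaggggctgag
H2-Oa, chr17:34092249-34092378, plus strand: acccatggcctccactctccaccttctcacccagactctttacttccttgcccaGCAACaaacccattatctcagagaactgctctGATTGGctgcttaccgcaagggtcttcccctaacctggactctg

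Counted back from the start site, the first letter of GATTGG stood at -49 in H2-Aa, -60 in H2-Eb1, -62 in H2-DMb1, -91 in H2-DMb2 and -44 in H2-Oa. The X box letters began at -81 in H2-Aa, -91 in H2-Eb1, -92 in H2-DMb1, -121 in H2-DMb2 and -76 in H2-Oa. Of 32851 promoters of the same length, 0.487% held GATTGG together with GCAAC or AACNGATG on the strand of the gene. Searched singly on both strands, GATTGG was in 10.1%, GCAAC in 17.3% and AACNGATG in 0.980% of them. In the files' coordinates H2-DMb2 begins upstream of the RefSeq start used here. The sixth gene, H2-DMa, has 2 annotated starts in the table, and neither window held GATTGG. The letters are those of the C57BL/6J reference and describe that sequence only.

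The comparison of old PBS with young PBS asks what differs with age in ovaries of mice injected with the vehicle. All 10 class II genes were lower in the libraries labelled old PBS than in those labelled young PBS, and in none of the 10 did the groups overlap. Over all genes tested, 11% were lower and 38.1% higher without overlap. The members' median log2 fold change was -1.87, against 0.23 over all genes tested; it was -1.81 without young PBS replicate 1 and -1.94 without replicate 2. By limma's test with Benjamini-Hochberg adjustment over all genes, 1 of the 10, H2-Eb1, passed an adjusted p of 0.05, where 0.0364% of genes passed. At an unadjusted p below 0.05, 9 of the 10 were lower, where 3.55% of genes were. These counts and the median include H2-Ea, H2-Oa and Ciita, which passed the filter through groups other than old PBS. That limits how far they can be set against the shares of all genes. In bulk tissue fewer cells of a type and less RNA per cell cannot be told apart.

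H2-Eb1, the beta chain of the E molecule, stood at 1.39 and 1.54 TPM in old PBS, against 83.4 and 105 TPM in young PBS. Both old PBS libraries were near the level of 1 TPM, and both young PBS libraries were far above it. Whether the libraries carried the same H2 haplotypes was not tested, which limits what the levels and ratios of the E chains can be taken to mean. On the log2(TPM + 1) scale, which understates changes at low values, H2-Eb1 fell by 5.26 ± 0.22 (SE; adjusted p 0.00525 by limma). That call was lost without any 1 of the old MIT-001 or old PBS libraries (adjusted p 0.0773 to 0.226) and in a fit of just the 4 libraries at issue (0.101), while the fold change lay between -5.90 and -4.82 in all 14 alternatives.

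The A molecule chains had smaller log2 fold changes than H2-Eb1. H2-Ab1, the A beta chain, stood at 15.9 and 25.6 TPM in old PBS, against 184 and 241 TPM in young PBS (log2 fold change -3.32 ± 0.31, adjusted p 0.0650 by limma). H2-Aa, the A alpha chain, stood at 25.8 and 44.4 TPM in old PBS, against 276 and 328 TPM in young PBS (log2 fold change -3.11 ± 0.32, adjusted p 0.0686). Neither chain passed over all genes, although no old PBS library came near the lower young PBS one. Both passed after median centring, after quantile normalization and without young PBS replicate 1, with an adjusted p between 0.0367 and 0.0482 for the 6 values.

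Cd74, the most abundant of the 10 in every library, stood at 79.9 and 120 TPM in old PBS, against 675 and 1077 TPM in young PBS. Its log2 fold change was -3.11 ± 0.33 (adjusted p 0.0699 by limma), the same size as that of H2-Aa. Cd74 made up 59.3% and 58.1% of the summed TPM of the 10 genes in old PBS, against 52.9% and 59.7% in young PBS, so its share of the class II transcripts overlapped between the groups while the sum did not. That sum was 135 and 208 TPM in old PBS, against 1275 and 1803 TPM in young PBS.

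The peptide-exchange genes had log2 fold changes closer to 0 than the A chains, on a scale that understates changes at their low levels. H2-DMa stood at 3.77 and 4.66 TPM in old PBS, against 17.3 and 19.5 TPM in young PBS (log2 fold change -1.90 ± 0.27). H2-DMb1 stood at 3.98 and 5.14 TPM in old PBS, against 15.0 and 13.3 TPM in young PBS (-1.45 ± 0.28). H2-DMb2 stood at 2.82 and 4.37 TPM in old PBS, against 17.8 and 13.1 TPM in young PBS (-1.85 ± 0.43). None of the 3 passed limma's test over all genes (adjusted p 0.127 to 0.210), though all 3 had an unadjusted p below 0.05. H2-DMb1 and H2-DMb2 are near-identical copies, so the division of reads between them is uncertain. H2-DMa overlaps Brd2, which lies on the opposite strand at 113 to 143 TPM, and with the strand setting not given in the sources used here its own value is uncertain too.

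The 3 least abundant members were also lower in old PBS, without passing. Ciita, the transcriptional coactivator, stood at 0.259 and 0.442 TPM in old PBS, against 1.30 and 2.31 TPM in young PBS (log2 fold change -1.04 ± 0.37, adjusted p 0.244 by limma). It overlaps Dexi on the opposite strand, at 19.9 to 34.1 TPM. H2-Oa, the DO alpha chain, stood at 0.393 and 0.260 TPM in old PBS, against 1.51 and 1.98 TPM in young PBS (-1.05 ± 0.39, adjusted p 0.253). H2-Ea, the E alpha chain, stood at 0.565 and 0.699 TPM in old PBS, against 3.88 and 2.27 TPM in young PBS (-1.29 ± 1.12, adjusted p 0.581).

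**Figure D1:**
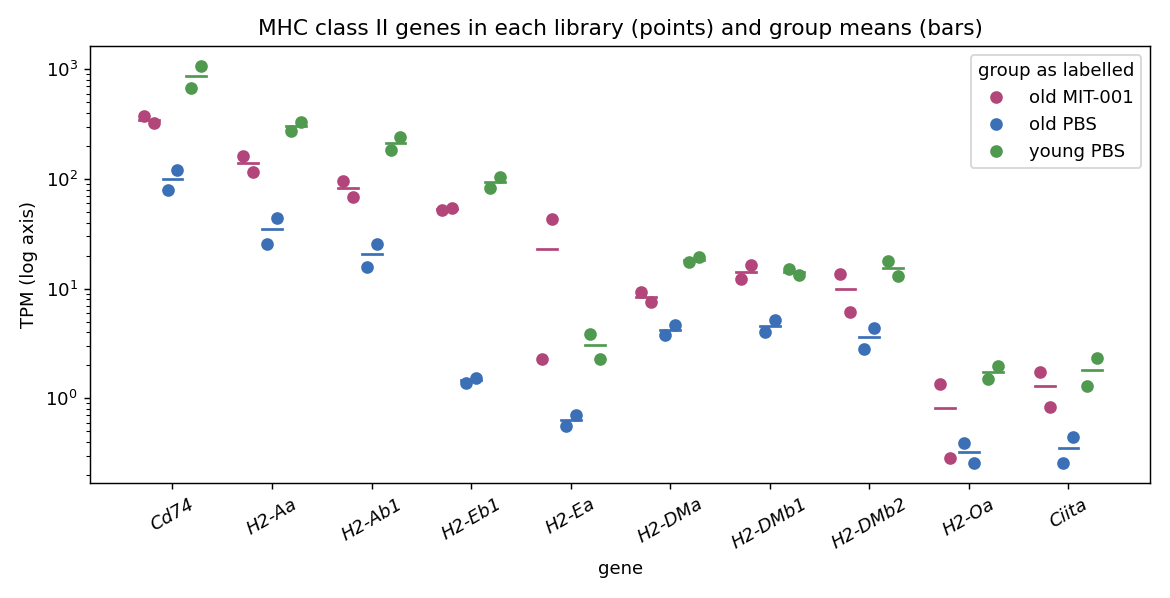
TPM of the 10 MHC class II genes on a log axis, with 1 point per library and a bar at the mean of the 2 libraries of a group as labelled. The old PBS libraries were below both young PBS libraries for every gene, and H2-Ea was at 43.5 TPM in a single old MIT-001 library.

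The comparison of old MIT-001 with old PBS asks what the compound changes in old ovaries. It shares the old PBS libraries with the comparison above, so a high or low value there enters both, in opposite directions. All 10 genes were higher in old MIT-001 than in old PBS, 9 of them without overlap between the groups, where 27.2% of all genes were higher without overlap. The exception was H2-Oa. The median log2 fold change was 1.63 for the 10 genes and 0.03 over all genes tested. By limma's test 1 of the 10, again H2-Eb1, passed over all genes, where 0.0182% of genes passed. At an unadjusted p below 0.05, 8 of the 10 were higher, where 7.45% of genes were higher and 4.36% lower. Here too the counts and the median include H2-Ea, H2-Oa and Ciita, with less than 1 TPM in both old PBS libraries.

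H2-Eb1 stood at 51.7 and 54.1 TPM in old MIT-001, against 1.39 and 1.54 TPM in old PBS. The difference between the 2 libraries of a group was small beside the difference between the groups, and the log2 fold change was 4.45 ± 0.22 (adjusted p 0.0144 by limma). The call was lost without any 1 of the 4 libraries compared (adjusted p 0.145 to 0.524), with no filter on low values (0.0784) and with a replicate block (0.0531), while the fold change lay between 3.87 and 5.08 in all 14 alternatives.

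H2-Aa stood at 160.4 and 117 TPM in old MIT-001, against 25.8 and 44.4 TPM in old PBS (log2 fold change 1.98 ± 0.32, adjusted p 0.104 by limma). H2-Ab1 stood at 96.3 and 68.3 TPM in old MIT-001, against 15.9 and 25.6 TPM in old PBS (1.96 ± 0.31, adjusted p 0.104). Cd74 stood at 375 and 321 TPM in old MIT-001, against 79.9 and 120 TPM in old PBS (1.81 ± 0.33, adjusted p 0.124). These 3 genes did not pass over all genes, and their groups did not overlap. Cd74 and H2-Ab1 passed without young PBS replicate 1 (adjusted p 0.0395 and 0.0479) and without young PBS replicate 2 (0.0409 and 0.0490), and Cd74 in a fit of just the 4 libraries at issue (0.0406).

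Of the DM genes, H2-DMb1 stood at 12.2 and 16.4 TPM in old MIT-001, against 3.98 and 5.14 TPM in old PBS (log2 fold change 1.45 ± 0.28, adjusted p 0.145 by limma). H2-DMb2 stood at 13.5 and 6.15 TPM in old MIT-001, against 2.82 and 4.37 TPM in old PBS (1.17 ± 0.43, adjusted p 0.361). H2-DMa stood at 9.28 and 7.60 TPM in old MIT-001, against 3.77 and 4.66 TPM in old PBS (0.86 ± 0.27, adjusted p 0.305). All 3 were higher in old MIT-001 without overlap, and none passed. Ciita stood at 1.74 and 0.841 TPM in old MIT-001, against 0.259 and 0.442 TPM in old PBS (0.74 ± 0.37, adjusted p 0.518). H2-Oa stood at 1.35 and 0.283 TPM in old MIT-001, against 0.393 and 0.260 TPM in old PBS (0.39 ± 0.39, adjusted p 0.835), and its old MIT-001 replicate 2 lay between the old PBS libraries.

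H2-Ea was split between the replicates of old MIT-001. It stood at 2.30 TPM in old MIT-001 replicate 1 and at 43.5 TPM in replicate 2, against 0.565 and 0.699 TPM in old PBS. The fitted log2 fold change was 2.89 ± 1.12 (adjusted p 0.396 by limma), and it was 1.02 without old MIT-001 replicate 2 and 4.77 without replicate 1, so that library sets the value. Replicate 2 was also high for Foxj1, a gene of ciliated cells picked after its values were seen: 0.867 and 67.0 TPM in old MIT-001, against 1.40 and 1.07 TPM in old PBS and 4.08 and 3.08 TPM in young PBS. The same library had less H2-Aa, H2-Ab1 and Cd74 than replicate 1 and slightly more H2-Eb1. Neither the part of cell makeup nor that of the H2 haplotype in the H2-Ea value was tested.

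Between old MIT-001 and young PBS, 8 of the 10 genes were lower in old MIT-001 and 6 of them without overlap, where 6.56% of all genes were lower and 37.3% higher without overlap. Limma called none of the 10 over all genes, and 0% of genes in all passed; 5 of the 10 were lower at an unadjusted p below 0.05, where 0.813% of genes were. These 5 were Cd74 (log2 fold change -1.30 ± 0.33), H2-Ab1 (-1.36 ± 0.31), H2-Aa (-1.13 ± 0.32), H2-DMa (-1.04 ± 0.27) and H2-Eb1 (-0.81 ± 0.22), with an adjusted p between 0.161 and 0.163. The median of the 10 was -0.74, against 0.24 over all genes tested. H2-DMb1 had a log2 fold change of 0.00 ± 0.28, with 12.2 and 16.4 TPM in old MIT-001, against 15.0 and 13.3 TPM in young PBS, and its sign turned to negative after other scalings (-0.13 with FPKM, -0.41 after median centring and -0.45 after quantile normalization). H2-Ea had 1.60 ± 1.12, and -0.27 without old MIT-001 replicate 2.

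In order of level, H2-Aa, H2-Ab1, H2-Eb1, H2-DMa and Cd74 thus stood lowest in old PBS, between in old MIT-001 and highest in young PBS, with no overlap between neighbouring groups. For H2-DMb1, H2-DMb2 and Ciita, old MIT-001 and young PBS overlapped and only old PBS stood apart. For H2-Oa, old MIT-001 overlapped old PBS and lay below young PBS, and for H2-Ea the old MIT-001 libraries lay above and beside those of young PBS. Scaling moved all genes together. With TPM as deposited, the median over every gene tested was 0.23 (old PBS against young PBS), 0.03 (old MIT-001 against old PBS) and 0.24 (old MIT-001 against young PBS), and after median centring it was -0.09, -0.06 and -0.17. Of all genes at an unadjusted p below 0.05, the higher ones made up 80.5%, 63.1% and 95.5% in these comparisons with TPM as deposited, but 36.2%, 52.5% and 44.2% after median centring. The members' medians after median centring were -2.20, 1.54 and -1.16.

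**Figure D2:**
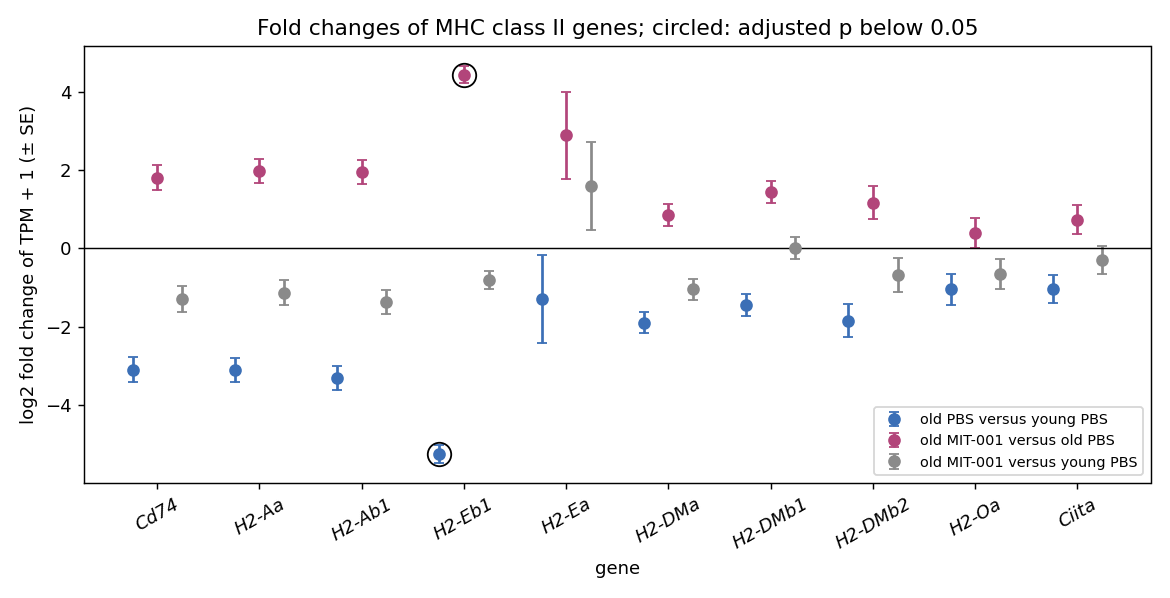
Log2 fold changes of TPM + 1 with standard errors for the 10 genes in the 3 comparisons, with a black circle where the adjusted p was below 0.05. H2-Eb1 lay farthest from 0 in both comparisons with old PBS (-5.26 against young PBS, 4.45 for old MIT-001 against old PBS), and H2-Ea had the widest error.

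Ratios between chains within a library do not depend on how that library was scaled. A total of 7 ratios were compared between 3 pairs of groups, which makes 21 comparisons. With 2 libraries against 2, the exact two-sided permutation test cannot give a p below 0.333, and the adjusted p over the 21 comparisons was at least 0.583, so none could pass. The values are therefore read against the spread of the libraries only.

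The ratio of the E to the A beta chain, H2-Eb1 over H2-Ab1, was 0.0878 and 0.0600 in old PBS, against 0.454 and 0.433 in young PBS. In old MIT-001 it was 0.537 and 0.791, against the same old PBS values. As means of log2 ratios it stood at -3.78 ± 0.39 in old PBS and at -1.17 ± 0.05 in young PBS (SD, n = 2 each), a difference of -2.61 with an exact permutation p of 0.333. For old MIT-001 the mean was -0.62 ± 0.40, and the difference from old PBS was 3.17 with the same p. In old PBS H2-Ab1 thus had 11.4 and 16.7 times the TPM of H2-Eb1, against 2.20 and 2.31 times in young PBS and 1.86 and 1.26 times in old MIT-001. Leaving out single libraries left the difference of old PBS from young PBS between -2.88 and -2.34, and that of old MIT-001 from old PBS between 2.89 and 3.45.

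The ratio of the 2 chains of the A molecule lay in a narrow range. H2-Aa over H2-Ab1 was 1.66 and 1.71 in old MIT-001, 1.63 and 1.74 in old PBS, and 1.501 and 1.36 in young PBS. Old MIT-001 and old PBS overlapped, and young PBS was lower than both, with a log2 difference of 0.23 for old PBS against young PBS (exact permutation p 0.333). Cd74 over H2-Ab1 was 3.89 and 4.69 in old MIT-001, 5.03 and 4.71 in old PBS, and 3.67 and 4.46 in young PBS. Across all 6 libraries Cd74 over H2-Ab1 lay between 3.67 and 5.03, while H2-Ab1 itself lay between 15.9 and 241 TPM.

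The 2 chains of the E molecule were far from equal in most libraries. H2-Ea over H2-Eb1 was 0.0445 and 0.804 in old MIT-001, 0.405 and 0.455 in old PBS, and 0.0465 and 0.0217 in young PBS. Old MIT-001 replicate 2 was the library with the highest ratio, at 43.5 TPM of H2-Ea beside 54.1 TPM of H2-Eb1. In old PBS the ratio was higher than in young PBS, with both genes at 1.54 TPM or less. The groups did not overlap between old PBS and young PBS (log2 difference 3.76, exact permutation p 0.333), and old MIT-001 overlapped both.

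H2-DMa over H2-DMb1 was 0.760 and 0.464 in old MIT-001, 0.946 and 0.907 in old PBS, and 1.16 and 1.46 in young PBS, with no overlap between any groups (exact permutation p 0.333 for each pair). H2-DMb2 over H2-DMb1, the near-identical copies, was 1.11 and 0.375 in old MIT-001, 0.708 and 0.851 in old PBS, and 1.19 and 0.984 in young PBS. Here too old MIT-001 replicate 2 was lowest of the 6 libraries, and replicate 1 lay among the young PBS libraries. H2-Oa over H2-DMa, the DO to DM alpha chains, was 0.145 and 0.0372 in old MIT-001, 0.104 and 0.0557 in old PBS, and 0.0873 and 0.102 in young PBS, with overlap between all groups.

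**Figure D3:**
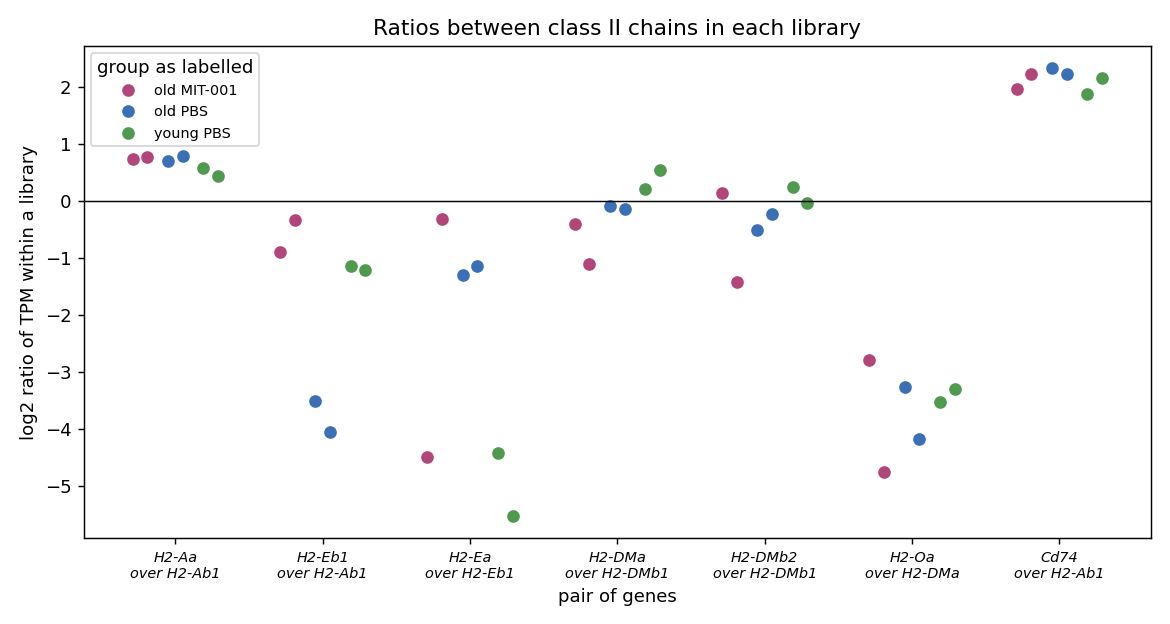
Log2 ratio of TPM between pairs of class II genes within each library, with 1 point per library and groups as labelled. H2-Eb1 over H2-Ab1 was lowest in the 2 old PBS libraries (-3.51 and -4.06), H2-Aa over H2-Ab1 lay between 0.44 and 0.80 in all 6, and H2-Ea over H2-Eb1 split the 2 old MIT-001 libraries (-4.49 and -0.31).

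Of the other loci of the class II family, H2-Ob, the DO beta chain, passed the filter, through libraries of old MIT-001 and young PBS only. It stood at 2.06 and 1.80 TPM in old MIT-001, 0.311 and 0.204 TPM in old PBS, and 1.75 and 0.551 TPM in young PBS, lowest in old PBS without overlap. Its log2 fold changes were -0.72 for old PBS against young PBS and 1.22 for old MIT-001 against old PBS, and neither passed limma's test (adjusted p 0.365 and 0.293). H2-Eb2 reached at most 0.414 TPM and was not tested.

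Factors that drive class II transcription did not share a direction. Of 17 genes listed, 15 were tested and none passed over all genes in any of the 3 comparisons, with a median log2 fold change of 0.15 for old PBS against young PBS and 0.01 for old MIT-001 against old PBS. At an unadjusted p below 0.05, 3 were higher and 2 lower in old PBS than in young PBS, where 14.6% and 3.55% of all genes were. In old MIT-001, 2 were higher and 1 lower than in old PBS, where 7.45% and 4.36% of all genes were. Spi1, the myeloid transcription factor PU.1, stood at 3.25 and 3.54 TPM in old PBS, against 20.5 and 16.6 TPM in young PBS (log2 fold change -2.15, adjusted p 0.0915 by limma), and at 8.43 and 9.41 TPM in old MIT-001. Irf1, an interferon-induced factor, had -1.03 for old PBS against young PBS (adjusted p 0.216) and 0.68 for old MIT-001 against old PBS. Jak1, a kinase of interferon receptors, went the other way, with 0.86 and -0.68. The RFX subunit gene Rfxank lay between 12.6 and 13.5 TPM in all 6 libraries, and Rfx5 overlapped between old MIT-001 and old PBS (18.3 and 11.9 TPM, against 20.5 and 13.6 TPM). Ifng, the cytokine that induces Ciita, was listed at 0 in 3 libraries and reached at most 0.371 TPM.

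Of 13 genes of endosomal processing, all were tested and none passed over all genes, with medians of -0.41 for old PBS against young PBS and 0.00 for old MIT-001 against old PBS. At an unadjusted p below 0.05, 1 was higher and 1 lower in old PBS than in young PBS, where 14.6% and 3.55% of all genes were. In old MIT-001, 2 were higher than in old PBS, where 7.45% of all genes were. Ctss, the cathepsin S protease that trims the invariant chain, stood at 14.5 and 24.2 TPM in old PBS, against 125 and 92.7 TPM in young PBS (log2 fold change -2.46, adjusted p 0.107 by limma). In old MIT-001 it stood at 76.2 and 54.2 TPM (1.72 against old PBS, adjusted p 0.141). Ctsc, a lysosomal peptidase, had -0.47 and 0.79 in these comparisons. Canx, an endoplasmic reticulum chaperone, went the other way, with 0.65 (adjusted p 0.254) and -0.29, both without overlap. Ifi30, a thiol reductase of endosomes, stood at 68.4 and 73.7 TPM in old MIT-001, 81.6 and 78.7 TPM in old PBS, and 100.1 and 114 TPM in young PBS. Of 5 costimulation genes tested of 7 listed, 5 were lower in old PBS than in young PBS (median -1.30), as were 5259 of all 16473 genes. All 5 were higher in old MIT-001 than in old PBS (median 1.04), as were 8812 of all genes. None of the 5 passed the test over all genes. Cd86, a costimulatory ligand of T cells, had -1.26 and 1.07 (adjusted p 0.210 and 0.246 by limma), and the adhesion gene Icam1 -1.61 and 1.04. Cd86 passed the filter through the other groups, since both old PBS libraries had less than 1 TPM of it.

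Summed leukocyte and macrophage markers were lowest in old PBS, between in old MIT-001 and highest in young PBS. The 5 general leukocyte markers, all tested, summed to 77.9 to 109 TPM in old MIT-001, 29.4 to 33.4 TPM in old PBS, and 165 to 249 TPM in young PBS. Not every leukocyte gene had this order: Ptprc, Cd52 and Cd53 overlapped between old MIT-001 and young PBS. Laptm5 and Coro1a did not. Ptprc stood at 7.25 and 4.62 TPM in old MIT-001, 1.25 and 2.83 TPM in old PBS, and 9.50 and 3.27 TPM in young PBS. The 10 macrophage markers, all tested, summed to 143 to 157 TPM in old MIT-001, 59.7 to 69.3 TPM in old PBS, and 228 to 246 TPM in young PBS. Of these 10, 8 were lower in old PBS than in young PBS and 10 higher in old MIT-001 than in old PBS, with medians of -1.52 and 0.95 and none past limma's test over all genes. Of all 16473 genes, 5259 were lower in the first of these comparisons and 8812 higher in the second. Cd68 had log2 fold changes of -2.33 and 1.36 (adjusted p 0.0869 and 0.144), and Adgre1, the F4/80 antigen, -1.72 and 1.17 (adjusted p 0.155 and 0.198). Members of the list also went the other way: Lyve1, a hyaluronan receptor, stood at 13.6 and 12.5 TPM in old MIT-001, 6.05 and 8.98 TPM in old PBS, and 7.32 and 4.45 TPM in young PBS. Mertk, a receptor for dying cells, stood at 12.1 and 10.7 TPM in old MIT-001, 8.35 and 9.78 TPM in old PBS, and 8.57 and 7.73 TPM in young PBS. Both were highest in old MIT-001 and overlapped between old PBS and young PBS. None of the leukocyte or macrophage markers was listed at 0 in any library. Of the macrophage markers, Cd163 passed the filter through the other groups, with less than 1 TPM in both old PBS libraries. Between old MIT-001 and young PBS, 4 of the 10 macrophage markers were lower and 2 higher without overlap, where 6.56% and 37.3% of all genes were.

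Dendritic cell and B cell markers were lower and less even. The 11 dendritic cell markers, 5 of them tested, summed to 32.5 to 49.9 TPM in old MIT-001, 30.7 to 33.3 TPM in old PBS, and 44.2 to 67.6 TPM in young PBS. Most of each dendritic sum was Zbtb46 and Clec10a. Clec10a stood at 9.37 and 6.35 TPM in old MIT-001, 12.0 and 14.1 TPM in old PBS, and 23.7 and 18.1 TPM in young PBS, so it was lowest in old MIT-001, and Zbtb46 overlapped between old PBS and young PBS. All 5 tested were lower in old PBS than in young PBS (median -0.64), 3 without overlap, where 11% of all genes were. Against old PBS, 4 were higher in old MIT-001 and 1, Clec10a, was lower (median 0.46), and none passed. Itgax and Cd209a passed the filter through the other groups, since both old PBS libraries had less than 1 TPM of each. Itgax stood at 2.53 and 1.12 TPM in old MIT-001, 0.657 and 0.868 TPM in old PBS, and 8.37 and 2.51 TPM in young PBS. The defining markers Flt3, Xcr1 and Clec9a stayed below 1 TPM in every library, and Xcr1 was listed at 0 in old PBS replicate 1. The 9 B cell markers, 4 of them tested, summed to 22.9 and 4.12 TPM in old MIT-001, 5.40 and 4.01 TPM in old PBS, and 35.4 and 6.22 TPM in young PBS. Ms4a1 and Cr2 were listed at 0 in young PBS replicate 2, and Blk in old PBS replicate 2. Young PBS replicate 2 had more H2-Aa, H2-Ab1, H2-Eb1 and Cd74 than replicate 1 but less of the B cell sum. The old MIT-001 pair differed from this: replicate 1 had more H2-Aa, H2-Ab1 and Cd74 than replicate 2 and more of the B cell sum. It had slightly less H2-Eb1. The 9 genes of the T cell list, which holds the class II co-receptors Cd4 and Lag3, summed to 32.7 to 57.8 TPM in old MIT-001, 14.8 to 22.1 TPM in old PBS, and 32.2 to 72.1 TPM in young PBS. Cd28 was the largest part of these sums except in young PBS replicate 1, with 26.7 and 20.3 TPM in old MIT-001, 16.9 and 9.44 TPM in old PBS, and 1.28 and 46.6 TPM in young PBS. Cd3e, a chain of the T cell receptor complex, stood at 4.36 and 1.84 TPM in old MIT-001, 0.378 and 0.576 TPM in old PBS, and 4.22 and 2.93 TPM in young PBS. Of 7 tested, 6 were lower in old PBS than in young PBS without overlap, where 11% of all genes were. All 7 were higher in old MIT-001 than in old PBS without overlap, where 27.2% of all genes were, and none passed. These counts include Cd3d, Cd3e and Cd3g, which passed the filter through the other groups. Both old PBS libraries had less than 1 TPM of each. Ctla4 was listed at 0 in young PBS replicate 2. The 8 epithelium markers, all tested and none at 0, summed to 954 to 1284 TPM in old MIT-001, 183 to 186 TPM in old PBS, and 331 to 488 TPM in young PBS. Old MIT-001 was thus highest there and not between the other groups. Ovgp1, an oviductal glycoprotein gene, was the largest part of both old MIT-001 sums, at 567 and 215 TPM. It stood at 20.3 and 30.5 TPM in old PBS, and at 27.8 and 128 TPM in young PBS. All 8 epithelium markers were higher in old MIT-001 than in old PBS without overlap (median 2.81), where 27.2% of all genes were. Pax8, which is among them, passed the filter through the other groups, with less than 1 TPM in both old PBS libraries. Of the 8, 1, Krt18, passed limma's test over all genes (log2 fold change 2.63, adjusted p 0.0343), where 0.0182% of genes passed. The part of these cell types in the class II values was not tested.

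**Figure D4:**
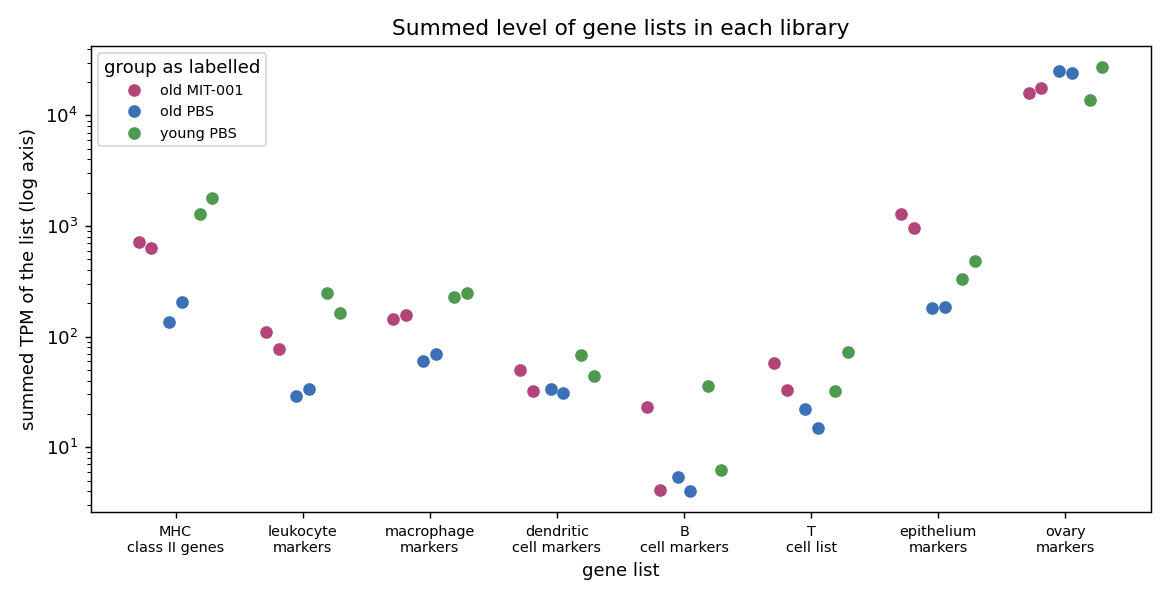
Summed TPM of gene lists in each library on a log axis, with 1 point per library and groups as labelled. The MHC class II, leukocyte and macrophage sums were lowest in old PBS and highest in young PBS, the B cell sums split the replicates of old MIT-001 and of young PBS, and the epithelium sums were highest in old MIT-001.

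The genes most like H2-Aa, H2-Ab1 and Cd74 in pattern were ranked by Pearson's r over the 6 libraries, on log2(TPM + 1), against the mean of the 3, among 10912 genes whose mean TPM was 5 or more. The first 6 were Adgre1 (r = 0.995), Laptm5, a lysosomal membrane protein of leukocytes (0.991), C1qa, a complement chain (0.990), Mpeg1, the macrophage perforin (0.986), Rtn2 (0.985) and Serpina3g (0.985). Adgre1 stood at 12.1 and 10.2 TPM in old MIT-001, 3.999 and 4.79 TPM in old PBS, and 15.3 and 18.4 TPM in young PBS. Among the members, r against the same mean was 0.983 for H2-DMa, 0.952 for H2-Eb1, 0.935 for Ciita, 0.933 for H2-DMb2, 0.878 for H2-DMb1, 0.851 for H2-Oa and 0.331 for H2-Ea. Of the genes outside the family, those most like H2-Eb1 were Haus4 (0.990), Fcgr2b, an inhibitory Fc receptor (0.990), and Sipa1l3 (0.990), which stood at 26.5 and 29.8 TPM in old MIT-001, 16.9 and 17.2 TPM in old PBS, and 29.0 and 30.03 TPM in young PBS. The libraries share their groups, and these values describe 6 points.

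Genes beside the class II cluster were read for the same comparisons. In the window from 33592379 to 34847547 on chromosome 17, which reaches 500000 bases beyond the H2 members, 58 other genes, H2-Ob among them, were tested and none passed over all genes in any comparison. Their median log2 fold change was -0.01 for old PBS against young PBS, with 29 higher and 29 lower, and -0.03 for old MIT-001 against old PBS, with 26 higher and 32 lower. For old MIT-001 against young PBS it was -0.17, with 15 higher and 43 lower. At an unadjusted p below 0.05, 7 were lower and 1 higher in old PBS than in young PBS, where 3.55% of all genes were lower and 14.6% higher. For old MIT-001 against old PBS, 6 were higher and 3 lower, where 7.45% and 4.36% of all genes were. For old MIT-001 against young PBS, 2 were lower and 0 higher, where 0.813% and 17.1% of all genes were. Psmb8, an immunoproteasome subunit, stood at 28.0 and 26.2 TPM in old PBS, against 70.9 and 68.8 TPM in young PBS (log2 fold change -1.34, adjusted p 0.127 by limma), and at 46.6 and 41.3 TPM in old MIT-001. C4b, a complement component, had -3.37 for old PBS against young PBS (adjusted p 0.170) and 2.75 for old MIT-001 against old PBS (adjusted p 0.184). Gpsm3 had -1.40 and 0.96 in these comparisons.

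**Figure D5:**
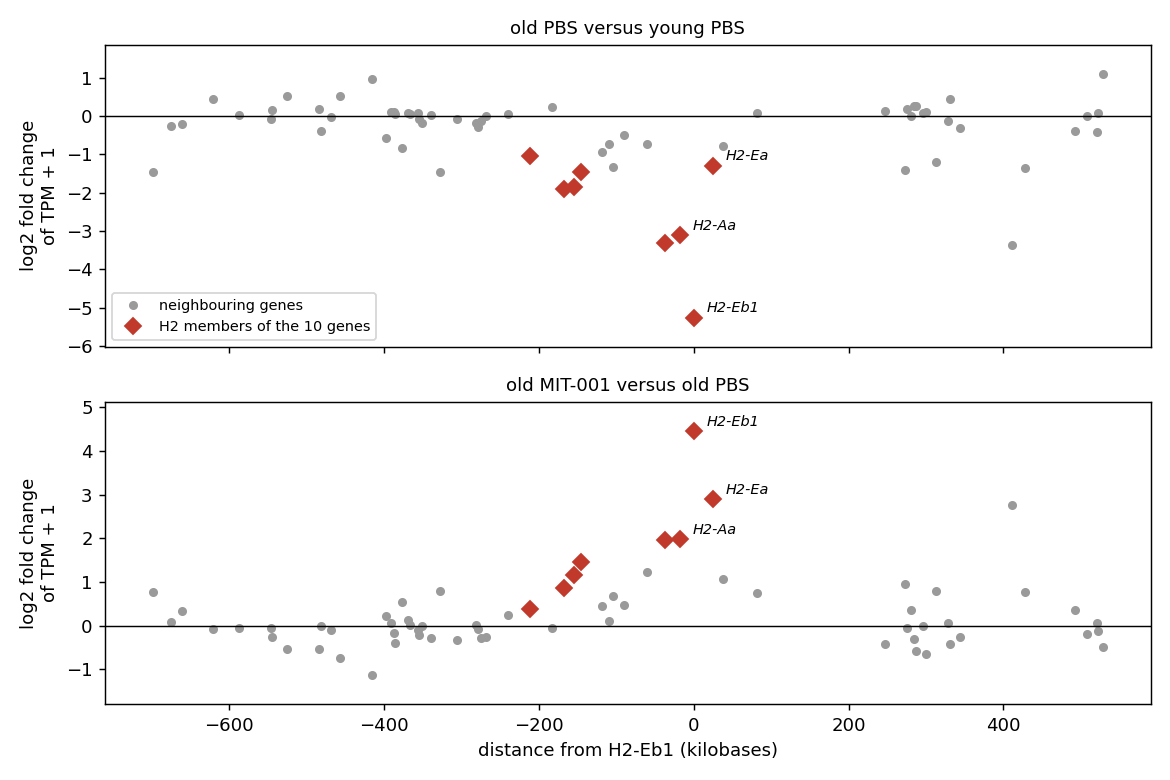
Log2 fold changes of TPM + 1 for the H2 members of the 10 genes (red diamonds) and 58 neighbouring genes, H2-Ob among them (grey points), against distance from H2-Eb1 in kilobases, for old PBS against young PBS and old MIT-001 against old PBS. H2-Eb1 lay farthest from 0 in both panels, while the medians of the neighbouring genes were -0.01 and -0.03.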

How the data were processed

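Messenger RNA libraries of whole ovaries, 2 in each of 3 groups, were analysed from 1 gene table per library. TRIzol served for RNA extraction and a SMARTER mRNA-Seq kit for the libraries, per the labels' protocols. The submitters' processing notes name Trimmomatic, HISAT2, StringTie and mm10. Their versions, the annotation and the strand setting were not given in the sources used here. Per the file headers, the authors gave TPM for each gene, scaled for length and library total. The authors also gave FPKM, which is scaled for length and the number of fragments. The deposited coverage signal was used here to estimate depth and, in place of TPM, for an alternative value of each ratio. No counts were used, so intervals that need counts are not given. Reads of another H2 haplotype carry mismatches to the C57BL/6J reference, and copies such as H2-DMb1 and H2-DMb2 share sequence.

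Symbols came from RefSeq (GRCm38.p6) by Gene ID: 98 rows per library had no match (0.0145% to 0.0301% of the TPM) and were dropped. Rows of 1 symbol were summed. Genes that reached 1 TPM in 2 or more libraries were fitted as log2(TPM + 1) with limma 3.58.1 (R 4.3.3), 1 mean per group over all 6 libraries and an intensity trend, with 3 residual and 3.12 prior degrees of freedom. P-values were two-sided and adjusted by Benjamini-Hochberg over 16473 genes. The procedure was tested on simulated data. Ratios were tested by exact permutation over libraries (scipy 1.17.1). Alternatives were no filter, a filter at 5 TPM, 0.1 as pseudocount, FPKM, median centring, quantile normalization, the 4 libraries compared alone, a replicate block, and each library left out. Errors are SE for fold changes and SD over 2 libraries elsewhere.

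The members, the 11 other gene lists and the tests were chosen with earlier results of these data known. Of each list, up to 4 members with the smallest p in either comparison with old PBS could be named. Other genes named were picked after their values were seen. These were Foxj1, Rfx5, Rfxank, Ifng, Flt3, Xcr1, Clec9a, Ms4a1, Cr2, Blk, Ctla4, H2-Eb2, Amh and Gdf9. Also among them were Lyve1, Mertk, Zbtb46, Clec10a, Cd28, Ovgp1, Cd3d, Cd163 and Ptprc. Neighbours were named by the smallest p, and genes of like pattern by r without immunoglobulin segments, pseudogenes and clone names.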

Additional observations from a re-analysis of the deposited data

How the results depend on the processing

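The direction of all 10 class II genes in old PBS against young PBS was the same in every alternative in which the gene was tested. Against old PBS, old MIT-001 kept its direction except for H2-Oa, which ranged from -0.046 (without old MIT-001 replicate 1) to 0.83 (without replicate 2). For old MIT-001 against young PBS, H2-DMb1 turned negative with FPKM (-0.13), median centring (-0.41), quantile normalization (-0.45), without old MIT-001 replicate 2 (-0.20) and without young PBS replicate 2 (-0.08); with single libraries left out it ranged from -0.20 to 0.20. H2-Ea ranged from -0.27 (without old MIT-001 replicate 2) to 3.48 (without replicate 1). With a filter at 5 TPM, H2-Ea, H2-Oa and Ciita were not tested.

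For old PBS against young PBS, 1 class II gene and 6 genes in all passed. The members past the test were 3 with FPKM, 4 with median centring, 4 with quantile normalization, and 0 with the 4 libraries compared alone. The counts over all genes were 1 with no filter, 15 with median centring, 17 with quantile normalization and 0 with the 4 libraries alone. With single libraries left out, members ranged from 0 to 5 and all genes from 0 to 948, both highest without young PBS replicate 1; all genes came to 14 without young PBS replicate 2. For old MIT-001 against old PBS, 1 and 3 passed: 0 and 0 with no filter, 2 and 356 with the 4 libraries alone, and 1 gene in all with FPKM and with median centring. Without single libraries the members ranged from 0 to 3 and all genes from 0 to 372, highest without young PBS replicate 2 (358 without replicate 1). Limma called no gene for old MIT-001 against young PBS in the main setting.

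With the replicate block, 1 gene passed for old PBS against young PBS (H2-Eb1, adjusted p 0.0213) and 0 for old MIT-001 against old PBS (H2-Eb1, adjusted p 0.0531). The labels link same-numbered libraries by that number only, and whether they shared a batch was not given in the sources used here. The correlations of their deviations between groups were 0.18, 0.24 and 0.01. The cause of these changes was not tested.

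H2-Oa over H2-DMa reversed with a pseudocount of 1 on each TPM (log2 difference 0.85 for old PBS against young PBS, 0.39 for old MIT-001 against young PBS). With 2 libraries per group and no counts, the counting error of genes near 1 TPM is not known.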
